A study of Homo sapiens with 8 samples.

Results

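The Kruppel-like factors examined here were KLF2, KLF3, KLF4, KLF5, KLF6, KLF7, KLF9, KLF10, KLF11 and KLF13, 10 genes picked by gene name in both deposited expression tables. They are 10 of the 45341 genes that the 2 tables share, and 10 of the 17 genes of the first table, or 18 of the second, whose name is KLF and a number. All 10 passed the filter on low values, which asked for an FPKM (fragments per kilobase of gene length and per 1e+06 reads) of 1 or more in 2 or more libraries. That filter left 12696 genes to test. Their choice did not use measured values, but was made with earlier results of these data known.

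Kruppel-like factors are transcription factors with zinc fingers at the C-terminal end that bind GC-rich sequences such as the GC box and the CACCC box, which they share with the Sp factors. Members with acidic activation domains (KLF2, KLF4, KLF5, KLF6 and KLF7) bring in acetyltransferases and mostly activate transcription. KLF3 recruits the corepressor CtBP, while KLF9, KLF10, KLF11 and KLF13 recruit the Sin3A corepressor with its histone deacetylases. Several are short-lived proteins whose mRNA rises quickly after stress or growth signals, and in breast epithelium they are known as regulators of cell cycle exit, differentiation and migration.

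Messenger RNA was measured in 8 bulk libraries of MDA-MB-231, a human breast cancer line of the mesenchymal triple-negative type, plated at 600000 cells per well. A pair of triphenylphosphonium compounds, lipophilic cations of a kind that mitochondria take up, were compared at 10 µM for 24 h: 1-SO, whose dibenzothiophene group carries an oxo group by the series title, and 1-S, which lacks it. Vehicle was 1% DMSO, and one plate was irradiated for 30 min with UV-A from 8 bulbs (325 to 375 nm) while its partner stayed in the dark. The question, as far as the labels state it, was how each compound changes expression with and without UV-A.

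Round 1, with cells at passage 8, gave 1 library each of vehicle in the dark, vehicle with UV-A, 1-SO in the dark and 1-SO with UV-A. Round 2, with cells at passage 32 to 34, gave 1 library each of vehicle in the dark, vehicle with UV-A, 1-S in the dark and 1-S with UV-A. Only the vehicle groups therefore have n = 2, 1 library per round, and the labels do not say that these are separate cultures beyond their round and passage. Compound, round and passage changed together and cannot be told apart in any comparison of 1-SO with 1-S, and plate and light are the same thing. In bulk RNA from a whole well, a change in every cell, a change in some of the cells and a change in RNA per cell cannot be told apart.

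The libraries held 15.8 to 22.6 M counted reads, so 3 reads, the limit that a count of 0 allows, were 0.133 to 0.19 CPM. The markers of the line were present in every library (VIM at 219 to 317 FPKM, AXL at 123 to 329, CD44 at 28.3 to 197, CAV1 at 44 to 161 and KRT18 at 29.6 to 80.5), while ESR1, PGR and CDH1 did not exceed 0.14 FPKM. ERBB2, listed with the low markers, stood at 9.78 to 29.2 FPKM, and EPCAM at 2.25 to 5.57. PTPRC of leukocytes and ALB of liver did not exceed 0.116 FPKM, and the fibroblast genes COL1A1 and PDGFRB stood at 1.45 to 7.09 and 0.709 to 1.22 FPKM. Reads of mitochondrially encoded genes made up 0.93% of the library of 1-SO with UV-A and 2.4 to 3.12% of the other 7 libraries.

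Promoter windows from RefSeq (GRCh38.p14) were found for 8 of the 10 members, 13 windows in all, with KLF3 and KLF10 not matched. Those of KLF4, KLF13, KLF11 and KLF2 are shown because these genes separate the treatments below: under UV-A, KLF4 and KLF13 rose with both compounds, KLF11 rose with 1-S and stayed near vehicle with 1-SO, and KLF2 fell with 1-SO and rose with 1-S. Each line is read 5′ to 3′ on the gene's strand. KLF4 is chr9:107489770-107490019 (minus strand), KLF13 chr15:31326585-31326834 (plus), KLF11 chr2:10043971-10044170 (plus, before the second of its starts) and KLF2 chr19:16324576-16324815 (plus). Capitals mark TGACG, the core of the cAMP response element, on either strand, the whole element in KLF11, and in KLF2 a match to the MEF2 consensus.
KLF4: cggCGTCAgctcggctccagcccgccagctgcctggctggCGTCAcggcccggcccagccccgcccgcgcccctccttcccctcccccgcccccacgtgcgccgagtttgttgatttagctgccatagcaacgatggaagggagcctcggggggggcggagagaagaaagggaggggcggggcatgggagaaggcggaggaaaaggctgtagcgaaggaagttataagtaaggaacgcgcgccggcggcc
KLF13: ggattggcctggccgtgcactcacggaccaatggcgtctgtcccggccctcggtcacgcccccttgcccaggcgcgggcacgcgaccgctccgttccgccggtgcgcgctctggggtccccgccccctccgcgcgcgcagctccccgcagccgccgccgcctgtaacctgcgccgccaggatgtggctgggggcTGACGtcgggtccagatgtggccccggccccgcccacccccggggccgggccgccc
KLF11: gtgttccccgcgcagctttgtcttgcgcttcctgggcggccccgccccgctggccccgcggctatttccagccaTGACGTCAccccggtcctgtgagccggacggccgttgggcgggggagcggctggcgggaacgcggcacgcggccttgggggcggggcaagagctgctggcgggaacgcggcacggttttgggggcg
KLF2: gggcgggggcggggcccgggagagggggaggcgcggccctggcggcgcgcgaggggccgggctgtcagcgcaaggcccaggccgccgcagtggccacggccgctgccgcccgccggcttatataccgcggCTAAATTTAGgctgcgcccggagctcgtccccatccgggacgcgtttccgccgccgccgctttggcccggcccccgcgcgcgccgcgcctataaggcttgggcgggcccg

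These letters describe the windows and are not evidence of binding. The lines of KLF11 and KLF2 show 200 and 240 bases, leaving out those nearest the start. Motif counts and GC content below are for all 250 bases, so a line can hold fewer motifs than counted. Over the 250 bases before the start, on both strands, the 4 windows held 4 (KLF4), 3 (KLF13), 6 (KLF11) and 4 (KLF2) GC boxes of the letters GGGCGG, and 42.6% of the 35116 RefSeq windows of the same length held at least 1. The CACCC box, by the letters CACCC, was found in 1 place each in KLF13 and KLF11 and in 0 in KLF4 and KLF2. Of all windows 54.7% held it. KLF4 held TGACG in 2 places and KLF13 in 1, a motif present in 21.2% of windows. The KLF11 window shown held the full palindrome TGACGTCA, present in 1.65% of windows, which counts as 2 overlapping copies of TGACG. The window of the other KLF11 start (chr2:10043579-10043828) held 2 GC boxes and neither TGACGTCA nor TGACG. KLF2 held the MEF2 consensus, present in 2.8% of windows, and no TGACG. GC content was 69.2% in the KLF4 window, 78.8% in that of KLF13, 74.4% in that of KLF11 and 80.0% in that of KLF2, against a median of 58.0% over all windows. Of the remaining members, a start of KLF5 held TGACG in 1 place, and a start of KLF7 held a CArG box, the site of serum response factor, which 1.16% of windows hold. The windows of KLF6 and KLF9 held 2 CCAAT boxes each, found in 32.0% of windows. In the deposited coordinates, the genes of KLF4 (chr9:107484852-107490482) and KLF11 (chr2:10042849-10054836) begin upstream of the RefSeq starts used, so their windows lie inside the deposited gene intervals.

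KLF6 was the most abundant member and KLF7 the least abundant in all 8 libraries, by FPKM, which is scaled to gene length. In the 4 vehicle libraries and in 1-SO in the dark the order then ran KLF2 and KLF10. With 1-SO and UV-A, and with 1-S in either light, KLF4 stood in place 2. The summed FPKM of the 10 members was 151 in vehicle in the dark, 161 in vehicle with UV-A, 149 in 1-SO in the dark and 224 in 1-SO with UV-A in round 1. In round 2 the sum was 136 in vehicle in the dark, 141 in vehicle with UV-A, 284 in 1-S in the dark and 308 in 1-S with UV-A. The sum was thus high in 1-SO only where UV-A was given, and high in both 1-S libraries. Levels are compared within a round, because the deposited gene lengths differ between the rounds by a factor of 1.0 (KLF2, KLF9) to 1.38 (KLF13).

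**Figure D1:**
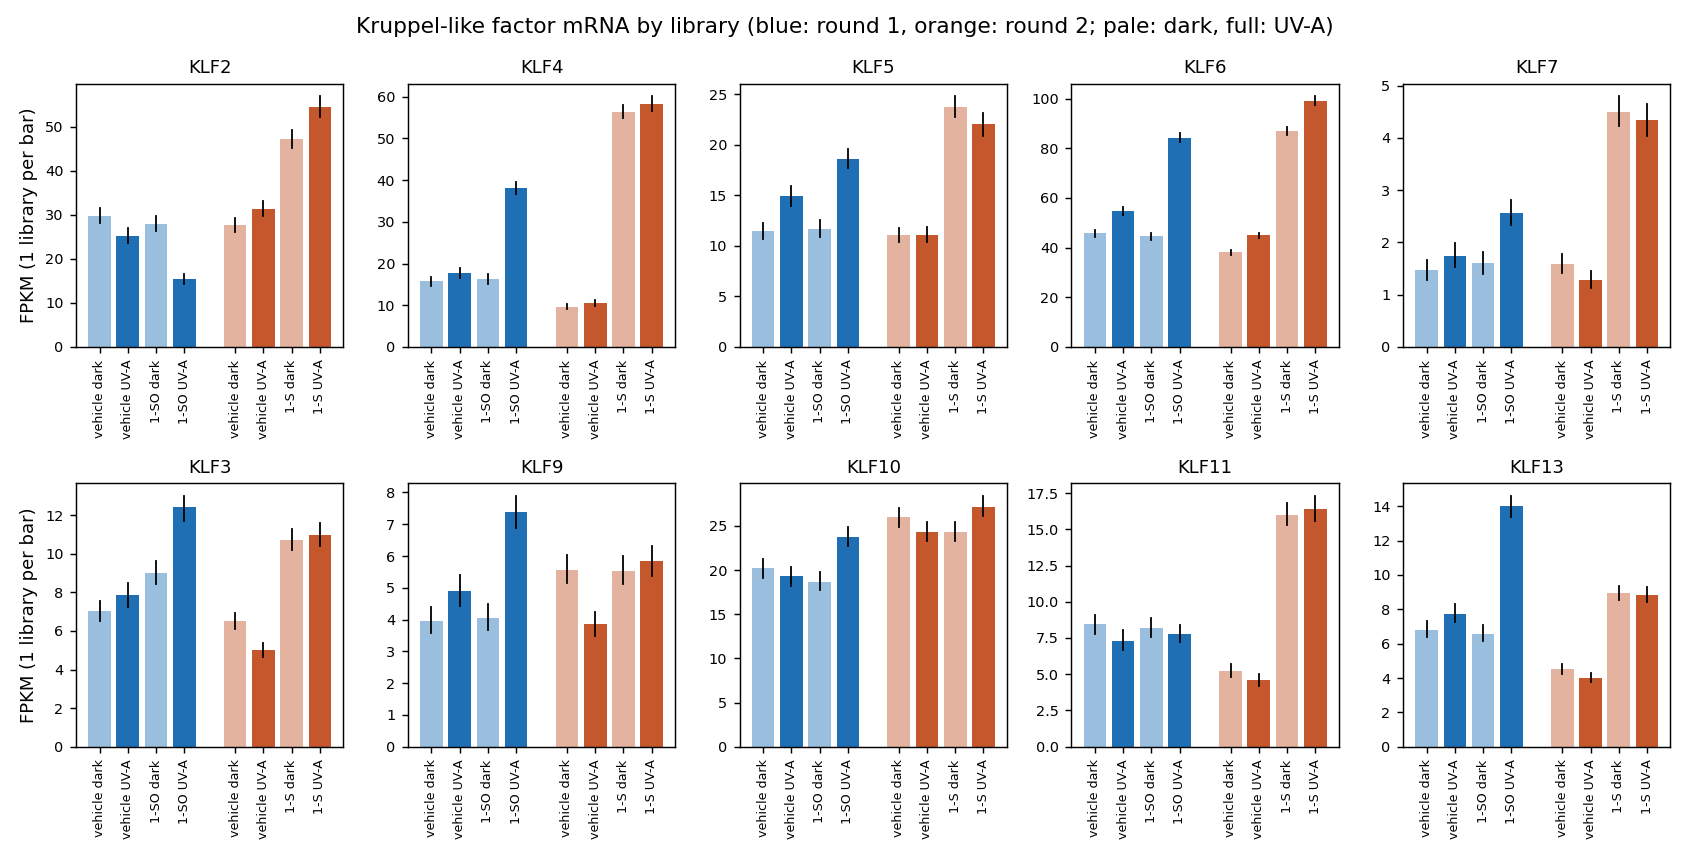
FPKM of each of the 10 members (y axis, linear and starting at 0, with its own scale for each gene) in the 8 libraries (x axis, 1 library per bar; blue, round 1; orange, round 2; pale, dark; full colour, UV-A), with the 95% interval of counting error as a black line. KLF4 was at 38.1 FPKM in 1-SO with UV-A against 15.7 to 17.8 in the other libraries of its round, and at 56.4 and 58.3 in the 1-S libraries against 9.68 and 10.5 in vehicle.

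UV-A alone, and 1-SO alone, left the members close to vehicle. The fit of edgeR's quasi-likelihood test called 0 of 10 members for UV-A in vehicle cells, and 0 of all 12696 genes (0%). The members' fitted log2 changes ran from -0.22 (KLF11) to 0.22 (KLF6), with a median of -0.06 against 0.0 for all genes tested and a smallest unadjusted p of 0.15. At an unadjusted p under 0.05 there were 347 genes, none of them a member, and DESeq2 also called 0. For 1-SO in the dark the members lay between -0.19 (KLF9) and 0.22 (KLF3), with a median of -0.04 against 0.0. Again 0 members and 0 of all genes (0%) were called by edgeR and by DESeq2. In that comparison 26 genes had an unadjusted p under 0.05 and the smallest of the members was 0.29. Both counts, 347 and 26, are below 0.05 of the 12696 genes, the share that no change at all would give. The test thus leaned to large p-values here, and those of the members say little by themselves. The 95% half-widths of these fitted changes were 0.28 to 0.41 for UV-A and 0.37 to 0.55 for 1-SO. They are limits for a single gene, without adjustment over all genes. Calls need an adjusted p under 0.05, so changes larger than the half-widths could also go uncalled. KLF9 with irradiated 1-SO, at 0.70 with a half-width of 0.50, is such a case.

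The vehicle response to UV-A had the same sign in both rounds for 5 members, KLF4, KLF5, KLF6, KLF10 and KLF11. It had opposite signs for KLF2 (log2 ratio of the libraries -0.31 in round 1 and 0.20 in round 2), KLF3 (0.09 and -0.36), KLF7 (0.18 and -0.29), KLF9 (0.23 and -0.52) and KLF13 (0.12 and -0.15). These opposite responses enter the fitted vehicle, which shares 1 light response between the rounds. For that reason the ratio to the vehicle library of the same round is given beside each fitted change, with its 95% interval of counting error in brackets.

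Irradiated 1-SO raised 3 members and lowered 1 relative to irradiated vehicle. KLF4, KLF13 and KLF3 were higher and KLF2 lower. These are 4 of 10 members, against 11.5% of all genes tested (4.47% higher and 7.05% lower), and the median of the 10 fitted log2 changes was 0.56 against 0.01. DESeq2 on the same model called 2 members, KLF4 and KLF2, and 3.6% of all genes. Against 1-SO in the dark, UV-A raised KLF4, KLF13 and KLF6 and lowered KLF2. These are 4 of 10 members against 14.8% of genes (5.57% higher and 9.21% lower), with a median of 0.55 against 0.0. DESeq2 called the same 4 members there, against 4.4% of genes. The library of 1-SO with UV-A is the one with 0.93% mitochondrial reads, and the part of this in the members' changes was not tested. Scaled to library totals, the median of all genes stood at 0.108 against irradiated vehicle and at 0.126 against 1-SO in the dark. Of all calls 57.4% were then higher against irradiated vehicle (38.8% with TMM scaling) and 58.8% against 1-SO in the dark (37.7% with TMM scaling), so the balance of higher and lower calls depends on the scaling. The 4 members called in each comparison stayed called in the same direction with library totals. The number called became 6 of 10 in each, against 13.7% and 18.1% of all genes at that scaling, with KLF6 (0.63, edgeR adjusted p = 0.014) and KLF9 (0.79, edgeR adjusted p = 0.012) added against irradiated vehicle. Against 1-SO in the dark KLF5 (0.67, edgeR adjusted p = 0.02) and KLF9 (0.86, edgeR adjusted p = 0.012) were added.

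With 1-S, 8 of 10 members rose in the dark and 8 of 10 with UV-A, all but KLF9 and KLF10. Calls among all genes were 30.9% in the dark (15.9% higher and 15% lower) and 27.5% with UV-A (13.8% higher and 13.7% lower). The median of the members' fitted log2 changes was 1.06 in the dark and 0.98 with UV-A, against 0.0 for all genes in both. UV-A added no called change in 1-S cells: 0 members and 0 of all genes (0%) were called by edgeR and by DESeq2. The members lay between -0.12 (KLF5) and 0.20 (KLF2) with a smallest unadjusted p of 0.35, and 308 genes had an unadjusted p under 0.05. The interaction of UV-A with 1-S is the response of 1-S cells to UV-A minus that of vehicle cells. It called 0 members and 0 genes (0%) with either tool, with 285 genes at an unadjusted p under 0.05. The counts of 308 and 285 are again below 0.05 of all genes tested, so large p-values say little here too.

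**Figure D2:**
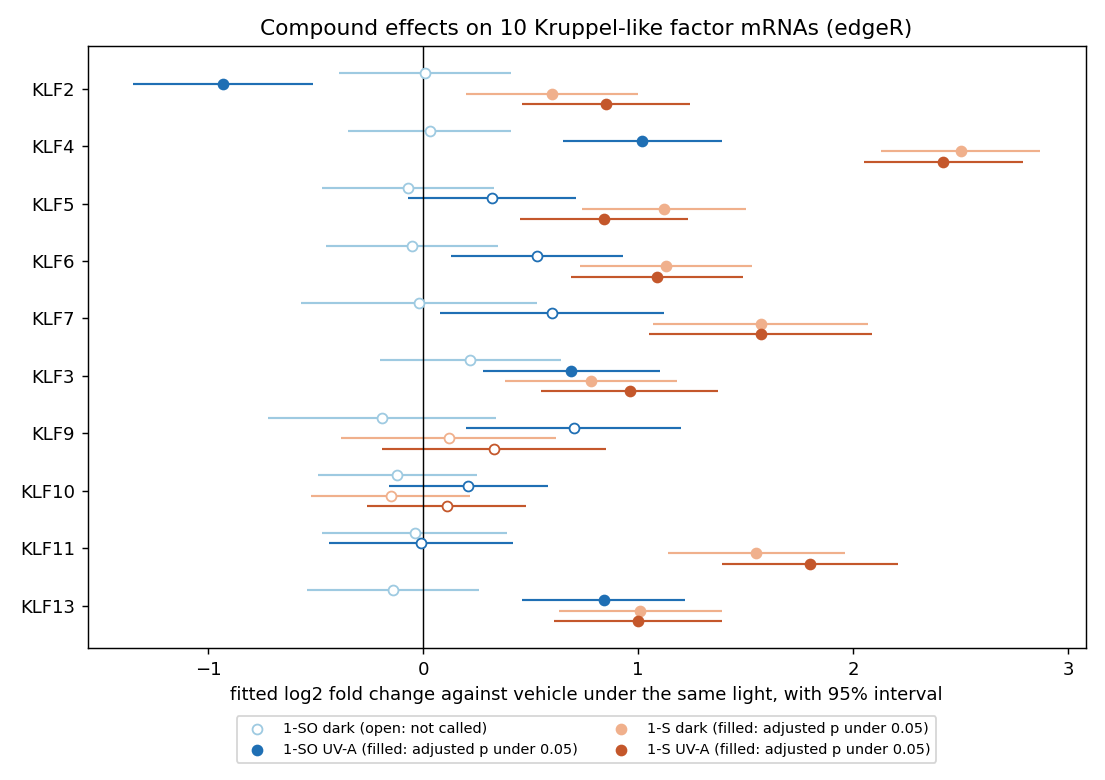
Fitted log2 fold change of each member (x axis) against vehicle under the same light, with its 95% interval, for 1-SO and 1-S in the dark and with UV-A (filled, edgeR adjusted p under 0.05; open, not called). The values of 1-SO in the dark lie between -0.19 and 0.22, those of 1-SO with UV-A between -0.93 for KLF2 and 1.02 for KLF4, and those of 1-S between -0.15 for KLF10 and 2.5 for KLF4.

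Among the activators, KLF4, a factor of epithelial differentiation and growth arrest and one of the reprogramming factors, had the largest fitted change of the members with irradiated 1-SO and with 1-S in either light. In round 1 it was at 15.7 FPKM (831 reads) in vehicle in the dark, 17.8 (790) in vehicle with UV-A, 16.2 (810) in 1-SO in the dark and 38.1 (2379) in 1-SO with UV-A. In round 2 it was at 9.68 FPKM (799 reads) in vehicle in the dark, 10.5 (834) in vehicle with UV-A, 56.4 (4509) in 1-S in the dark and 58.3 (4067) in 1-S with UV-A. The irradiated 1-SO library and both 1-S libraries lay above all others of their round, and 1-SO in the dark lay between the vehicle libraries. The fitted log2 change was 1.02 ± 0.18 (SE) for 1-SO with UV-A (edgeR adjusted p = 0.00032; library ratio 2.03 [1.87, 2.20]). For 1-S it was 2.5 ± 0.18 in the dark (edgeR adjusted p = 3.1e-11; 5.67 [5.26, 6.12]) and 2.42 ± 0.18 with UV-A (edgeR adjusted p = 6.5e-11; 5.31 [4.93, 5.73]). Within 1-SO cells UV-A raised KLF4 by 1.11 ± 0.20 (edgeR adjusted p = 0.00026), while within 1-S cells the change was 0.04 ± 0.19. With any 1 vehicle library left out, the change with 1-S in the dark stayed between 2.48 and 2.5.

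KLF2, the close relative of KLF4 known from endothelial and T cell quiescence, went in opposite directions with the 2 compounds under UV-A. Round 1 gave 29.8 FPKM (1131 reads) in vehicle in the dark, 25.3 (807) in vehicle with UV-A, 28.0 (1005) in 1-SO in the dark and 15.4 (690) in 1-SO with UV-A. Round 2 gave 27.7 FPKM (1262 reads) in vehicle in the dark, 31.4 (1379) in vehicle with UV-A, 47.3 (2087) in 1-S in the dark and 54.6 (2103) in 1-S with UV-A. The irradiated 1-SO library was the lowest of round 1, and both 1-S libraries lay above the vehicle libraries of round 2. KLF2 fell by 0.93 ± 0.21 on the log2 scale with 1-SO and UV-A (edgeR adjusted p = 0.0033; library ratio 0.576 [0.520, 0.639]). It fell by 0.99 ± 0.21 from 1-SO in the dark to 1-SO with UV-A (edgeR adjusted p = 0.0022). It rose by 0.85 ± 0.19 with 1-S and UV-A (edgeR adjusted p = 0.0013; ratio 1.66 [1.55, 1.78]) and by 0.60 ± 0.20 with 1-S in the dark (edgeR adjusted p = 0.02; ratio 1.66 [1.55, 1.78]). The last value rests on 1 library, being 0.23 without the vehicle library in the dark of round 2, and was not called by DESeq2 (adjusted p = 0.18) or without a filter on low values (0.52, edgeR adjusted p = 0.067).

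KLF6, an early growth-response gene and activator of the cell cycle inhibitor p21, was the most abundant member throughout. In round 1 it was at 45.8 FPKM in vehicle in the dark, 54.7 in vehicle with UV-A, 44.5 in 1-SO in the dark and 84.2 in 1-SO with UV-A. In round 2 it was at 38.1 in vehicle in the dark, 44.9 in vehicle with UV-A, 86.8 in 1-S in the dark and 99.2 in 1-S with UV-A. Each compound library with a high value lay above both vehicle libraries of its round. KLF6 rose by 1.13 ± 0.19 with 1-S in the dark (edgeR adjusted p = 7.5e-05; ratio 2.22 [2.14, 2.29]) and by 1.09 ± 0.19 with 1-S and UV-A (edgeR adjusted p = 0.00011; 2.11 [2.04, 2.18]). UV-A raised it in 1-SO cells by 0.79 ± 0.21 (edgeR adjusted p = 0.011), but against irradiated vehicle, itself 1.14 times its dark partner, the 1-SO value was 0.53 ± 0.20 (edgeR adjusted p = 0.081), short of the threshold. It passed with library totals, with limma on log2(FPKM + 1) (0.62, adjusted p = 0.028) and with limma on log2(FPKM + 0.1) (0.63, adjusted p = 0.047).

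KLF5, which promotes proliferation of epithelial cells, had called changes with 1-S and, in the edgeR fit with TMM scaling, none with 1-SO. UV-A within 1-SO cells was called for it with library totals and with limma on log2(FPKM + 1) (0.63, adjusted p = 0.039). It was at 11.5 FPKM in vehicle in the dark, 14.9 in vehicle with UV-A, 11.7 in 1-SO in the dark and 18.6 in 1-SO with UV-A in round 1. Round 2 gave 11.1 FPKM in each vehicle library, 23.7 in 1-S in the dark and 22.0 in 1-S with UV-A. The fitted log2 change was 1.12 ± 0.19 with 1-S in the dark (edgeR adjusted p = 5.1e-05) and 0.84 ± 0.19 with 1-S and UV-A (edgeR adjusted p = 0.0015), against 0.32 ± 0.19 with 1-SO and UV-A (edgeR adjusted p = 0.31).

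KLF7, described mainly in neurons and in fat cell precursors, was the least abundant member, with 231 to 911 reads per library. Its FPKM was 1.47 in vehicle in the dark, 1.75 in vehicle with UV-A, 1.60 in 1-SO in the dark and 2.57 in 1-SO with UV-A in round 1. In round 2 it was 1.59 in vehicle in the dark, 1.28 in vehicle with UV-A, 4.50 in 1-S in the dark and 4.34 in 1-S with UV-A. The 1-S libraries stood far above their vehicles, with a fitted log2 change of 1.57 ± 0.24 in the dark (edgeR adjusted p = 2.1e-05; ratio 2.76 [2.43, 3.13]) and 1.57 ± 0.25 with UV-A (edgeR adjusted p = 3.3e-05; 3.23 [2.80, 3.74]). The change with 1-SO and UV-A was 0.60 ± 0.25 (edgeR adjusted p = 0.13). The gene (chr2:207074137-207167267, GRCh38) holds the intronic transcript KLF7-IT1 over 1161 bases on the same strand.

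KLF3, the CtBP-dependent repressor of the family, rose with irradiated 1-SO and with 1-S. Round 1 gave 7.02 FPKM in vehicle in the dark, 7.84 in vehicle with UV-A, 9.02 in 1-SO in the dark and 12.4 in 1-SO with UV-A. Round 2 gave 6.51 FPKM in vehicle in the dark, 5.00 in vehicle with UV-A, 10.7 in 1-S in the dark and 11.0 in 1-S with UV-A. The 1-SO library in the dark already stood above both vehicle libraries of its round, with a ratio of 1.27 [1.14, 1.40], and UV-A within 1-SO cells gave 0.33 ± 0.22 (edgeR adjusted p = 0.32). Against vehicle under the same light the fitted log2 change was 0.69 ± 0.20 for 1-SO with UV-A (edgeR adjusted p = 0.022; ratio 1.49 [1.36, 1.64]). It was 0.78 ± 0.20 for 1-S in the dark (edgeR adjusted p = 0.0035; 1.60 [1.47, 1.74]) and 0.96 ± 0.20 for 1-S with UV-A (edgeR adjusted p = 0.00078; 2.10 [1.92, 2.31]). DESeq2 did not call the first of these (adjusted p = 0.32) or the second (adjusted p = 0.079). Limma on log2(FPKM + 0.1) did not call the first (adjusted p = 0.065). The last was 0.62 without the irradiated vehicle library of round 2. KLF3 overlaps KLF3-AS1 on the opposite strand over 688 bases. Without knowledge of the strand setting used in counting, reads of the pair cannot be told apart.

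Of the Sin3-binding members, KLF13, known for late activation of the chemokine CCL5 in T cells, rose with irradiated 1-SO and with 1-S in either light. In round 1 it was at 6.82 FPKM (875 reads) in vehicle in the dark, 7.75 (837) in vehicle with UV-A, 6.58 (799) in 1-SO in the dark and 14.0 (2120) in 1-SO with UV-A. In round 2 it was at 4.53 FPKM (961 reads) in vehicle in the dark, 4.02 (822) in vehicle with UV-A, 8.94 (1838) in 1-S in the dark and 8.85 (1588) in 1-S with UV-A. The irradiated 1-SO library and both 1-S libraries stood apart from the rest of their round. The fitted log2 change was 0.84 ± 0.19 for 1-SO with UV-A (edgeR adjusted p = 0.0032; ratio 1.71 [1.58, 1.85]). It was 1.01 ± 0.19 for 1-S in the dark (edgeR adjusted p = 0.00018; 1.92 [1.78, 2.08]) and 1.00 ± 0.19 for 1-S with UV-A (edgeR adjusted p = 0.00024; 2.10 [1.93, 2.29]). UV-A within 1-SO cells gave 0.96 ± 0.20 (edgeR adjusted p = 0.0018). DESeq2 did not call the change with 1-SO and UV-A (adjusted p = 0.09). A processed pseudogene, UBE2CP4, lies within the gene over 535 bases.

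KLF11, the TGF-beta-inducible early gene 2 product, rose with 1-S and stayed near vehicle with 1-SO in either light. Round 1 gave 8.44 FPKM (640 reads) in vehicle in the dark, 7.32 (467) in vehicle with UV-A, 8.19 (587) in 1-SO in the dark and 7.81 (700) in 1-SO with UV-A. Round 2 gave 5.23 FPKM (542 reads) in vehicle in the dark, 4.59 (458) in vehicle with UV-A, 16.0 (1608) in 1-S in the dark and 16.4 (1438) in 1-S with UV-A. All 4 libraries of round 1 lay within 7.32 to 8.44 FPKM, and both 1-S libraries far above their vehicles. The fitted log2 change was 1.55 ± 0.20 for 1-S in the dark (edgeR adjusted p = 1.7e-06; ratio 2.98 [2.70, 3.29]) and 1.80 ± 0.20 for 1-S with UV-A (edgeR adjusted p = 1.7e-07; 3.42 [3.08, 3.81]). For 1-SO with UV-A it was -0.01 ± 0.21 (edgeR adjusted p = 0.98; 1.01 [0.898, 1.14]). An antisense gene, AC104794.4, overlaps it over 416 bases, with the same uncertainty.

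KLF9, a target of glucocorticoid and thyroid hormone receptors, and KLF10, the TGF-beta-inducible early gene 1 product, had no called change in any of the 11 comparisons of the edgeR fit with TMM scaling and the filter on FPKM. KLF9 was at 3.97 FPKM in vehicle in the dark, 4.89 in vehicle with UV-A, 4.06 in 1-SO in the dark and 7.38 in 1-SO with UV-A in round 1. In round 2 it was at 5.57 FPKM in vehicle in the dark, 3.85 in vehicle with UV-A, 5.54 in 1-S in the dark and 5.83 in 1-S with UV-A. The irradiated 1-SO library stood above the others of its round, at 0.70 ± 0.24 against irradiated vehicle (edgeR adjusted p = 0.061; ratio 1.43 [1.27, 1.61]). It passed the threshold with library totals and with no filter on low values (0.69, edgeR adjusted p = 0.045). The ratio of 1-S to vehicle was 0.966 [0.864, 1.08] in the dark and 1.45 [1.27, 1.64] with UV-A, and the irradiated vehicle library was the lowest of that round.

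KLF10 stood at 20.2 FPKM in vehicle in the dark, 19.3 in vehicle with UV-A, 18.7 in 1-SO in the dark and 23.8 in 1-SO with UV-A in round 1. Round 2 gave 26.0 FPKM in vehicle in the dark, 24.3 in vehicle with UV-A, 24.3 in 1-S in the dark and 27.2 in 1-S with UV-A. The fitted log2 changes against vehicle under the same light were -0.12 ± 0.18, 0.21 ± 0.18, -0.15 ± 0.18 and 0.11 ± 0.18 for 1-SO in the dark, 1-SO with UV-A, 1-S in the dark and 1-S with UV-A, each within a 95% half-width of 0.37 of 0.

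Whether the response to UV-A in 1-SO cells differed from that in vehicle cells was tested by the interaction term. It was called for KLF4 (0.99 ± 0.24, edgeR adjusted p = 0.015), KLF13 (0.98 ± 0.25, edgeR adjusted p = 0.021) and KLF2 (-0.94 ± 0.26, edgeR adjusted p = 0.035), 3 of 10 members against 4.37% of all genes (1.47% higher and 2.9% lower), with a median of 0.52 against 0.0. With library totals 50.0% of all calls of this term were higher, against 33.7% with TMM scaling, and KLF9 was called as well (0.99, edgeR adjusted p = 0.046), making 4 of 10 members against 5.81% of genes. With TMM scaling KLF9 had 0.89 ± 0.33 (edgeR adjusted p = 0.14), KLF7 0.62 ± 0.34, KLF6 0.57 ± 0.26 and KLF11 0.03 ± 0.27. DESeq2 called 0 of the 3 (adjusted p = 0.19, 0.34 and 0.42) and 1.06% of all genes. KLF2 missed the threshold with median-of-ratios scaling (edgeR adjusted p = 0.054) and with limma on log2(FPKM + 1) (adjusted p = 0.071). Limma on log2(FPKM + 0.1) called KLF4 (adjusted p = 0.04) and neither KLF13 (adjusted p = 0.1) nor KLF2 (adjusted p = 0.12).

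**Figure D3:**
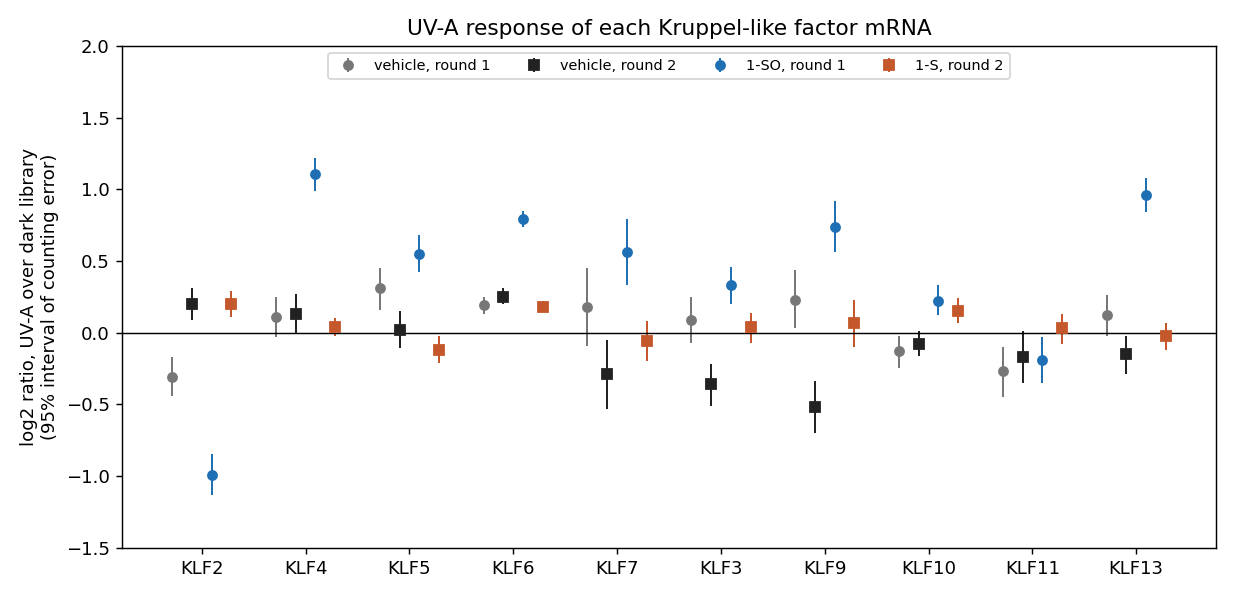
Response to UV-A of each member, as the log2 ratio of the irradiated library to its dark partner (y axis) in vehicle and compound-treated cells of each round, with the 95% interval of counting error. For 1-SO the points of KLF4 (1.11), KLF13 (0.96) and KLF2 (-0.99) lie away from both vehicle points, while those of 1-S lie between -0.12 and 0.20.

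The compounds were compared at the same dose and time by subtracting the 1-S effect from the 1-SO effect, in the dark and under UV-A, 20 differences over the 10 members in all, with p-values adjusted over all genes tested. In the dark 6 of 10 members were lower with 1-SO than with 1-S, against 17.2% of genes called in either direction (8.4% higher and 8.77% lower). These were KLF4 (-2.47 ± 0.24, edgeR adjusted p = 3.9e-08), KLF11 (-1.59 ± 0.27, edgeR adjusted p = 0.00016), KLF7 (-1.59 ± 0.34, edgeR adjusted p = 0.0016), KLF5 (-1.19 ± 0.25, edgeR adjusted p = 0.0016), KLF6 (-1.18 ± 0.26, edgeR adjusted p = 0.0023) and KLF13 (-1.15 ± 0.25, edgeR adjusted p = 0.0022). KLF7 narrowly missed the threshold with DESeq2 (adjusted p = 0.051). The differences of KLF2 (-0.59), KLF3 (-0.56), KLF9 (-0.31) and KLF10 (0.03) had 95% half-widths of 0.53, 0.55, 0.68 and 0.49 and were not called.

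Under UV-A 3 of 10 members were lower with 1-SO than with 1-S, against 3.55% of genes called in either direction (1.28% higher and 2.27% lower). These were KLF11 (-1.81 ± 0.27, edgeR adjusted p = 0.00011), KLF2 (-1.78 ± 0.26, edgeR adjusted p = 7.9e-05) and KLF4 (-1.40 ± 0.24, edgeR adjusted p = 0.00054). KLF13 differed by -0.16 with a 95% half-width of 0.51, KLF3 by -0.27 with 0.54, KLF10 by 0.10 with 0.48 and KLF9 by 0.36 with 0.67. KLF5 (-0.53), KLF6 (-0.57) and KLF7 (-0.98) had half-widths of 0.51, 0.53 and 0.68, and edgeR adjusted p-values of 0.32, 0.29 and 0.11.

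**Figure D4:**
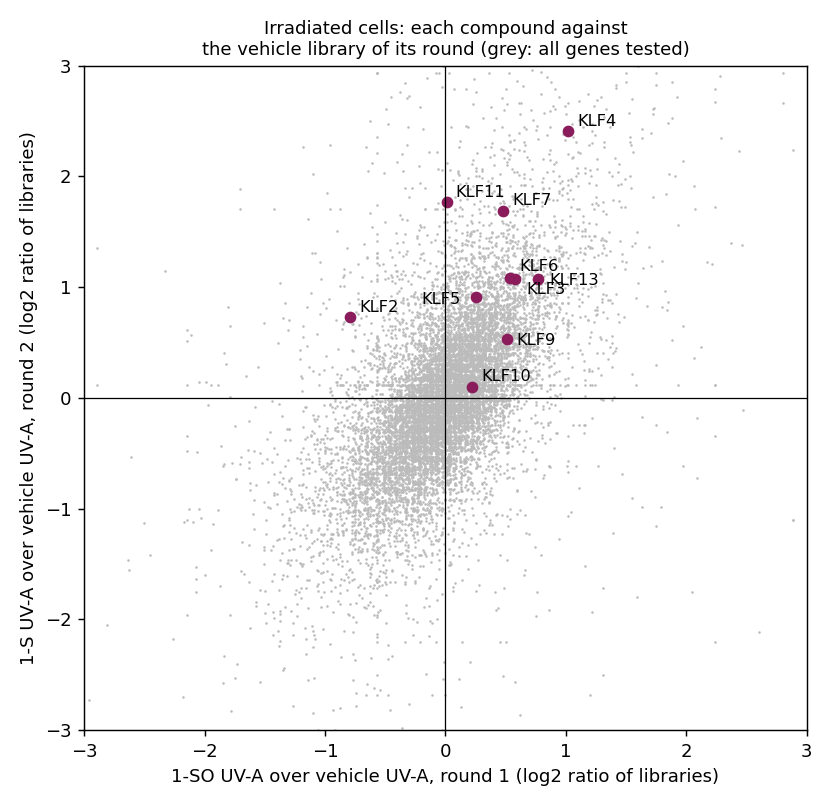
Log2 ratio of irradiated 1-SO to irradiated vehicle in round 1 (x axis) and of irradiated 1-S to irradiated vehicle in round 2 (y axis), for the 10 members (purple) and the genes tested (grey; 156 of 12696 lie outside the axes). KLF4 lies far to the upper right (1.02 and 2.41), KLF11 on the vertical axis (0.02 and 1.77) and KLF2 in the upper left (-0.79 and 0.73).

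By the size of the library ratios alone, without a test, 0 members changed at least 2-fold with UV-A in vehicle cells (against 2.89% of all genes in round 1 and 2.67% in round 2), with 1-SO in the dark (1.58%) or with UV-A in 1-S cells (2.6%). In the same reading 1 member changed at least 2-fold with 1-SO and UV-A against irradiated vehicle (KLF4, against 6.44% of all genes) and 1 from 1-SO in the dark to 1-SO with UV-A (KLF4, against 10.3%). With 1-S it was 5 members in the dark (KLF4, KLF11, KLF7, KLF6 and KLF5, against 14.4% of genes) and 6 with UV-A (KLF4, KLF11, KLF7, KLF6, KLF13 and KLF3, against 16.5%). In the authors' deposited table for 1-S in the dark, which compares single libraries, KLF4 and KLF11 had an adjusted p under 0.05 (log2 changes of 2.42 and 1.49, adjusted p = 1.5e-05 and 0.035), 2 of 10 members against 1.45% of the 58676 genes in it. In the authors' deposited table for 1-S with UV-A against irradiated vehicle they were KLF4, KLF11 and KLF7 (2.35, 1.71 and 1.63, adjusted p = 2.9e-05, 0.0077 and 0.016), 3 of 10 against 1.51%. Both shares are over many genes that the filter on low values here would leave out. For 1-SO with UV-A against irradiated vehicle the authors' deposited table gave KLF4 a log2 change of 1.02 with p = 0.015 and an adjusted p of 1.0, and called 0.259% of 23926 genes. No member had an adjusted p under 0.05 in any of the authors' deposited tables of round 1. The shares of all genes called were also low in the others of that round. They were 1.7% for 1-SO with UV-A against vehicle in the dark, 0.0345% for UV-A in vehicle and 0% for 1-SO in the dark. The absence of members is near these shares. In the first of them the log2 change was 1.11 for KLF4 and -1.12 for KLF2.

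The remaining family members moved little as a list. Of 17 other Kruppel-like and Sp genes, 9 were tested, and 1 of 9 was called with irradiated 1-SO, near the 11.5% of all genes (SP6, 1.69 ± 0.42, edgeR adjusted p = 0.0083). SP6 was at 0.482 to 0.62 FPKM (33 to 55 reads) in the vehicle libraries and in 1-SO in the dark. It reached an FPKM of 1 only in 1-SO with UV-A (2.09) and in 1-S (1.66 in the dark, 1.67 with UV-A). SP6 thus passed the filter only through the libraries where it was called higher, so its calls are not independent of the filter. With 1-S 2 of 9 were called in either light, against 30.9% of all genes in the dark and 27.5% with UV-A: KLF15 (1.77 ± 0.36 in the dark, edgeR adjusted p = 0.00049; 1.44 ± 0.36 with UV-A, edgeR adjusted p = 0.0038) and SP6 (1.47 ± 0.41 and 1.37 ± 0.42, edgeR adjusted p = 0.0082 and 0.014). The list's median was 0.11 with irradiated 1-SO, 0.03 with 1-S in the dark and 0.06 with 1-S and UV-A. KLF15 was at 1.04 and 1.18 FPKM in the vehicle libraries of round 2 and at 3.57 and 3.42 in those of 1-S.

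The signalling branch that induces KLF2 and KLF4 in endothelium, the MAP kinase chain to ERK5 with its MEF2 factors, and the serum response factors counted with it, had 0 of 10 genes called by edgeR with irradiated 1-SO, with fitted changes between -0.50 and 0.32. Of all genes 11.5% were called there, and 0 of 10 is near that share. With 1-S 1 of 10 was called in the dark, ELK3 (-0.66 ± 0.19, edgeR adjusted p = 0.0081), and 2 of 10 with UV-A, MEF2C (-0.90 ± 0.28, edgeR adjusted p = 0.018) and ELK3 (-0.59 ± 0.19, edgeR adjusted p = 0.019). These counts lie below the 30.9% and 27.5% of all genes called in the same comparisons.

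Among 11 cofactor genes, the partners through which these factors activate or repress, 0 were called with irradiated 1-SO (fitted changes between -0.47 and 0.17). This count is near the 11.5% of all genes called there. With 1-S in the dark 2 rose and 3 fell, 5 of 11 against 30.9% of all genes. The acetyltransferase genes CREBBP (1.11 ± 0.18, edgeR adjusted p = 3.2e-05) and EP300 (0.74 ± 0.18, edgeR adjusted p = 0.0025) rose. The deacetylase gene HDAC1 (-1.23 ± 0.20, edgeR adjusted p = 3.1e-05), a further acetyltransferase gene, KAT2B (-0.75 ± 0.19, edgeR adjusted p = 0.004) and the corepressor gene CTBP1 (-0.58 ± 0.19, edgeR adjusted p = 0.022) fell. With 1-S and UV-A 2 rose, CREBBP (0.61 ± 0.18, edgeR adjusted p = 0.012) and the corepressor gene CTBP2 (0.47 ± 0.18, edgeR adjusted p = 0.049), and 2 fell, HDAC1 (-0.99 ± 0.19, edgeR adjusted p = 0.00032) and KAT2B (-0.74 ± 0.19, edgeR adjusted p = 0.0054). EP300 was not called there (0.33 ± 0.18, edgeR adjusted p = 0.18). In that comparison 27.5% of all genes were called (13.8% higher and 13.7% lower). Of 7 ubiquitin ligase genes, several of which direct Kruppel-like factors to the proteasome, 1 rose with irradiated 1-SO, FBXO32 (1.17 ± 0.20, edgeR adjusted p = 0.00027). In the same list 2 rose with 1-S in the dark, FBXO32 (1.03 ± 0.20, edgeR adjusted p = 0.00036) and FBXW7 (0.95 ± 0.22, edgeR adjusted p = 0.0017). Both counts are near the shares of all genes called, 11.5% and 30.9%.

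Of 16 genes described as targets of Kruppel-like factors in other cells, 14 were tested. With irradiated 1-SO 1 rose and 3 fell, 4 of 14 against 11.5% of all genes. CDKN1A, which encodes p21, rose (1.54 ± 0.19, edgeR adjusted p = 5.1e-06). Those that fell were the protease gene PLAU (-1.70 ± 0.25, edgeR adjusted p = 5.5e-05), the mitotic cyclin gene CCNB1 (-1.24 ± 0.20, edgeR adjusted p = 1e-04) and the G1 cyclin gene CCND1 (-0.96 ± 0.24, edgeR adjusted p = 0.0076). With 1-S in the dark 4 rose and 3 fell, led by CDKN1A (2.11 ± 0.19, edgeR adjusted p = 3.9e-09), PLAU (-2.22 ± 0.26, edgeR adjusted p = 2.9e-07), S1PR1 (3.77 ± 0.46, edgeR adjusted p = 5.3e-07) and CCND1 (-1.43 ± 0.24, edgeR adjusted p = 5.3e-05). The SE of S1PR1 for UV-A in vehicle cells, 0.39, was above that of SP6, 0.35. Whether S1PR1 passed the filter on low values only through the libraries where it rose was not checked. Its call may therefore depend on the filter, as with SP6. With 1-S and UV-A 4 of the target genes rose and 4 fell. Of all genes, 30.9% were called with 1-S in the dark (15.9% higher and 15% lower) and 27.5% with 1-S and UV-A (13.8% higher and 13.7% lower). The list's medians were -0.01, -0.10 and -0.26. Of 5 genes induced by glucocorticoids, as KLF9 and KLF15 are in many tissues, 4 were tested. TSC22D3 (1.41 ± 0.23, edgeR adjusted p = 0.00011) and DUSP1 (0.79 ± 0.19, edgeR adjusted p = 0.0058) rose with irradiated 1-SO, while PER1 (0.09 ± 0.24) and FKBP5 (-0.48 ± 0.19, edgeR adjusted p = 0.11) were not called. FKBP5 fell from 1-SO in the dark to 1-SO with UV-A (-0.61 ± 0.20, edgeR adjusted p = 0.039). With 1-S in the dark DUSP1 (3.03 ± 0.19, edgeR adjusted p = 1.6e-12), TSC22D3 (2.58 ± 0.23, edgeR adjusted p = 2e-09) and PER1 (1.70 ± 0.22, edgeR adjusted p = 2.1e-06) rose, FKBP5 was at -0.34 ± 0.19 and KLF9 at 0.12 ± 0.24, neither of them called. With 1-S and UV-A 3 of the 4 tested were called higher and 0 lower. The shares of all genes called higher were 4.47% with irradiated 1-SO, 15.9% with 1-S in the dark and 13.8% with 1-S and UV-A.

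The genes whose pattern was most like that of KLF4 were taken by the Euclidean distance over 6 log2 ratios, each library against the vehicle library in the dark of its round, among the 12696 genes tested. KLF4 had ratios of 1.13 in 1-SO with UV-A, 2.5 in 1-S in the dark and 2.54 in 1-S with UV-A. GPCPD1 followed at a distance of 0.07 with ratios of 1.17, 2.52 and 2.57, then TNFSF9 at 0.40 (0.76, 2.47 and 2.5) and HERPUD1 at 0.44 (1.17, 2.16 and 2.27). The ratios of one round share their vehicle library, so the distance is a description over 8 libraries.

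The error behind the edgeR p-values above is how far the UV-A responses of vehicle in round 1 and round 2 differ, moderated across genes (1 residual and 26 prior degrees of freedom). Variation between wells given the same compound was not measured. Without the term for round, 0 members were called in any comparison, KLF4 with 1-S in the dark having 2.31 (edgeR adjusted p = 0.077).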

How the data were processed

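Poly-T beads enriched messenger RNA of MDA-MB-231 cells before the 8 libraries were made, per the labels' protocols. Per the file headers, each library has a column of deposited read counts per gene, whole numbers with no normalization. Deposited FPKM values, the authors' own, were checked by recomputing them from those counts, the deposited gene lengths and the library totals. Per the file headers, the authors' deposited comparison tables give a log2 fold change, a p-value and an adjusted p-value for each pair of libraries. The counts of round 1 were read from those comparison tables. The submitters' processing notes list edgeR 3.16.5, DESeq2, HTSeq 0.6.1, STAR 2.5, STAR-Fusion and TopHat with the builds hg19 and hg38. The sources used here do not give what each tool did or whether reads were counted by strand. Gene coordinates are those of the round 2 table (GRCh38). The rounds were made separately, so levels were compared only within a round.

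The members and lists were chosen with earlier results of these data known, and all members were named. From each list at most 4 called genes with the smallest p were named. Genes reaching an FPKM of 1 in 2 or more libraries were tested. The main test was the quasi-likelihood test of edgeR 4.0.16 (R 4.3.3) on the counts, with TMM factors within each round over the genes tested, and a model of round, vehicle light response and the 4 compound groups. It had 1 residual and 26 prior degrees of freedom and a biological coefficient of variation of 12%. Each compound is set against the vehicle value of the fit, in which both rounds share 1 light response. Two-sided p-values had the Benjamini-Hochberg adjustment over all 12696 genes, with calls at 0.05. Library ratios have exact conditional binomial 95% intervals. Such intervals, and limits for a count of 0, hold counting error alone, because 1 library per group within a round shows no variation between wells. Reads lacking molecular identifiers may be copies of the same molecule, so even the counting error may be larger than given.

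Round is the labelled batch and serves as the replicate block. The vehicle libraries of one round deviated together from their group means, with r = 0.86 across the 12696 genes, which are not independent replicates. The alternatives were DESeq2 1.42.0, limma 3.58.1 on log2(FPKM + 1) and log2(FPKM + 0.1), other scalings, other filters, no block, and each vehicle library left out. On simulated counts for 1-SO with UV-A over the 12696 genes, the edgeR fit recovered 62 of 100 genes changed 2-fold and 94 of 100 changed 4-fold, with 10 false calls. The simulated counts had no round effect and the same coefficient of variation, 12%, for every gene. The recovery therefore checks the fit and does not give its power in the real libraries. Motifs were searched on both strands in RefSeq promoter windows of GRCh38.p14.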

Additional observations from a re-analysis of the deposited data

Results flagged for a closer look

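Each of the following is a difference between groups that passed the test of the difference itself, the edgeR term named, and none was given a cause. The response to UV-A in 1-SO cells differed from that in vehicle cells for KLF4 (0.99), KLF13 (0.98) and KLF2 (-0.94, in the other direction). The 1-SO effect in the dark was below that of 1-S for KLF4 (-2.47), KLF7 (-1.59), KLF11 (-1.59), KLF5 (-1.19), KLF6 (-1.18) and KLF13 (-1.15). Under UV-A it was below that of 1-S for KLF11 (-1.81), KLF2 (-1.78) and KLF4 (-1.40). In the last 9, compound, round and passage cannot be told apart. The groups hold 1 or 2 libraries, too few to look for a library apart from the rest of its group.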

How the results depend on the processing

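Of 36 called changes of members, 0 of 432 alternative values had the other sign. Calls kept were 36 with library totals and with at least 10 reads in every library, 35 with median-of-ratios scaling, with no filter and with limma on log2(FPKM + 1), 33 with limma on log2(FPKM + 0.1) and 28 with DESeq2. The number of members called with 1-SO and UV-A was 2 with DESeq2 (4 with edgeR), and in the interaction with 1-SO it was 0 with DESeq2 and 1 with limma on log2(FPKM + 0.1) (3 with edgeR). With no replicate block, that is without the term for round, 0 members were called in each of the comparisons that had calls, from 3, 4, 6 or 8.

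Over all genes, DESeq2 called 457 genes against 1462 with edgeR for 1-SO with UV-A, 559 against 1876 for UV-A in 1-SO, 1552 against 3926 for 1-S in the dark, 1459 against 3487 for 1-S with UV-A, 135 against 555 for the interaction, and 617 against 2181 and 134 against 451 for the compound differences in the dark and under UV-A. Limma on log2(FPKM + 0.1) called 890, 210, 1396 and 196 in the first, the interaction and the compound differences. With no replicate block 19 and 15 genes were called for 1-S in the dark and with UV-A, and 0 in the others. Where edgeR called 0 genes, the alternatives called up to 23 for UV-A in vehicle, 2 for 1-SO in the dark, 6 for UV-A in 1-S and 6 for its interaction.

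With each vehicle library left out in turn, which leaves values with no test, 13 of 144 values moved by 1 SE or more. KLF2 with 1-S in the dark ranged from 0.23 to 0.73 and KLF3 with 1-S and UV-A from 0.62 to 1.07. KLF2 with 1-SO and UV-A ranged from -1.3 to -0.79, KLF4 from 1.00 to 1.02 and KLF13 from 0.77 to 1.04. Of 240 alternative values of library ratios, 14 left their counting interval and 0 reversed. The members had 231 to 11643 reads per library, and each compound and light had a single library.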
